A study of Mus musculus with 6 samples.

Results

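Sex steroid receptors and a set of oestrogen-responsive genes were examined in the pituitary of mice without the histone demethylase Jmjd2a, now named Kdm4a. The set held 9 genes, Esr1, Esr2, Gper1, Pgr, Greb1, Nrip1, Rara, Igfbp4 and Myc, and took in every non-control array probe whose RefSeq accession belongs to one of them, 14 probes of the 55681 on the array, which name 20972 genes. The rule used no measured value, though the 9 genes were chosen with earlier results of these data known. All 14 probes lay well above background on all 6 arrays, so none was lost to the filter on dim probes.

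Whole pituitaries came from 6 virgin female mice aged 8 weeks on a C57BL6 background, 3 null for Jmjd2a (Jmjd2a-/-, KO) and 3 wild-type littermates (Jmjd2a+/+, WT), with 1 one-colour array per animal. All 6 females, WT and KO alike, had been exposed to soiled bedding of a stud male, which activates the oestrous cycle (the Whitten effect), and were killed 24 h later. No unexposed females were analysed here. Cycle stage and hormone levels of single animals were not among the sample details used. Which stretch of Jmjd2a the null allele lacks is not stated in the labels.

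Oestrogen acts through 2 nuclear receptors, ERα (Esr1) and ERβ (Esr2), which bind DNA as dimers at oestrogen response elements, and through a membrane receptor, GPER1. In the pituitary ERα is found in gonadotropes and lactotropes and carries the feedback of ovarian steroids on gonadotropin and prolactin output. The progesterone receptor (Pgr) is itself induced by oestrogen in gonadotropes before the preovulatory surge.

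Levels are given as log2 signal relative to the 75th percentile of the same array, so that 1 unit is a doubling and 0 is the level of that percentile. Differences are log2 fold changes, KO over WT, with limma's standard error and n = 3 arrays per group. Levels of different probes are not set against each other, since probes differ in their response. In a whole gland, fewer cells of a type and less RNA per cell cannot be told apart.

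By limma with Benjamini-Hochberg adjustment over 36739 tested probes, 0 of the 14 probes passed an adjusted p under 0.05, as did 0 of all probes (0%). At an unadjusted p under 0.05 there was 1 of 14, against 12.4% of all probes. The 3 KO and 3 WT arrays did not overlap for 3 of 14, against 20.3% of all probes, so neither count stood apart from the background. Those 3 were 2 probes of Esr1 and the probe of Gper1, all higher in KO, a direction that 6.91% of all probes showed without overlap. The median log2 fold change of the 14 probes was 0.13 beside -0.080 for all probes, with 8 above 0.

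Stretches of 3 promoters are shown because they belong to the genes whose groups did not overlap, Esr1 and Gper1, and to Greb1, the textbook oestrogen target of the set. Each runs over the 250 bases before a RefSeq transcription start of GRCm38.p6, 5′ to 3′ on the gene's strand. Capitals mark the half-site of the oestrogen response element, GGTCA or its reverse complement TGACC.
Esr1 (chr10:4611739-4611988, plus strand): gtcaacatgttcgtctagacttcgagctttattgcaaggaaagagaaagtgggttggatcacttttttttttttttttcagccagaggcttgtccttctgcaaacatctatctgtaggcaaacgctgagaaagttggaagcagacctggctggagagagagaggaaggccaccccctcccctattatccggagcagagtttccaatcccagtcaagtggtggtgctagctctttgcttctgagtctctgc
Gper1 (chr5:139422929-139423178, plus strand): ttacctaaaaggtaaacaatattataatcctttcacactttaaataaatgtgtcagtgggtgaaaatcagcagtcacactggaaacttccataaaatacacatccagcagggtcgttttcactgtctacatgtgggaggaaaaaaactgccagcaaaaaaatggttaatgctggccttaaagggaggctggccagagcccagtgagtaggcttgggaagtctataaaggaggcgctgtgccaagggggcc
Greb1 (chr12:16800887-16801136, minus strand): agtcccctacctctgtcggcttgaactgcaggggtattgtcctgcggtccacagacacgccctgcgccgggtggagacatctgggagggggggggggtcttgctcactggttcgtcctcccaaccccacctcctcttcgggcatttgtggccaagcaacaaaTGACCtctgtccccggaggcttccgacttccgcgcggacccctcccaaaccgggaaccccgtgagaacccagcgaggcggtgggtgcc

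The RefSeq table held 14 promoters for 8 of the 9 genes. The full element, GGTCANNNTGACC on either strand, was in 0 of these 14 windows and in 0.0639% of all 32851 windows of this length. A half-site, which is also part of the full element, was in 5 of the 14, from Esr2, Greb1, Nrip1 and Rara, and in 35.2% of all. The Greb1 window shown has its half-site 88 bases before the start, and the windows of Esr1 and Gper1 hold none. Greb1 and Esr1 each have a further window that is not shown. That of Greb1 holds half-sites 194 and 85 bases before its start, and that of Esr1 holds none. Letters missing from such a window say nothing of elements farther away.

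Esr1 read higher in KO by all 3 of its probes, by 0.31 to 0.51, without passing the adjusted threshold. The brightest, A_52_P237077, is printed on 10 spots per array, which gives it the best measured technical error of the set. It read 2.52, 2.67 and 2.34 in WT replicates 1, 2 and 3, and 2.89, 2.77 and 2.80 in KO replicates 1, 2 and 3. Every KO array thus lay above every WT array, with the nearest pair, WT replicate 2 and KO replicate 2, 0.092 apart. Both of those arrays come from the second row of the slide. The log2 fold change was 0.31 ± 0.13 (adjusted p = 0.409), a 1.24-fold difference with a 95% interval of 0.992 to 1.54.

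**Figure D1:**
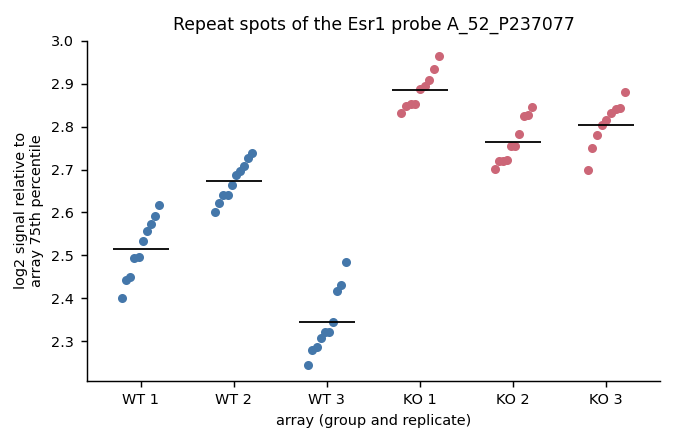
Log2 signal of each spot of the Esr1 probe A_52_P237077, relative to the array's 75th percentile, on the 6 arrays; points are spots ordered by value within an array, lines are array means. Spots of 1 array spread with an SD of 0.044 to 0.076, while array means run from 2.34 to 2.89.

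The repeat spots of this probe show how much of the spread is technical. Within an array the spots had an SD of 0.044 to 0.076, and 1 spot each on KO replicates 1 and 3 was left out as an outlier. Between animals the SD of the array means was 0.16 in WT and 0.062 in KO (n = 3 each). The spots also share the array's labelling and scaling, so this SD does not hold those errors.

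The other Esr1 probes are dimmer, with intensities of 22.8 to 138 units. A_55_P2030883 read -2.10, -1.57 and -1.85 in WT and -1.35, -1.50 and -1.14 in KO, again without overlap (log2 fold change 0.51 ± 0.18, adjusted p = 0.361). It is the single probe counted above at an unadjusted p under 0.05. A_51_P474658 read -2.90, -3.16 and -2.61 in WT and -2.72, -2.45 and -2.49 in KO, and there KO replicate 1 lay below WT replicate 3 (0.34 ± 0.18, adjusted p = 0.456). All 3 probes were above 0 under every alternative run, with a lowest value of 0.092 for the brightest (slide row 2 alone, 1 array per group). The value of A_55_P2030883 was 0.076 in slide row 2 alone and 0.23 with normexp background correction. That of A_51_P474658 was 0.054 with normexp and 0.20 without WT replicate 2. By exact permutation of the arrays, two-sided, p was 0.1 for the first 2 probes, the smallest that 3 arrays against 3 allow, and 0.2 for A_51_P474658.

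Esr2, the gene of ERβ, was carried by 1 probe and showed no separation. A_55_P2008197 read 1.37, 0.60 and 0.38 in WT and 0.50, 0.46 and 0.75 in KO. WT replicate 1 stood 0.62 above every other array, and the remaining WT arrays lay within or near the KO range. Before scaling, WT replicate 1 was not the highest array. It read 440 intensity units, beside 472 and 250 in WT replicates 2 and 3 and 349, 320 and 510 in KO. The log2 fold change was -0.21 ± 0.26 (adjusted p = 0.727) and turned to 0.081 without WT replicate 1 and to -0.41 without WT replicate 3.

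Gper1, which encodes the membrane oestrogen receptor, had the tightest replicates of the set. A_51_P185939 read 0.89, 0.81 and 0.92 in WT and 1.09, 1.16 and 1.12 in KO. The 3 KO arrays lay above the 3 WT arrays, and neither group spanned more than 0.11. Its fold change was 1.19, with a 95% interval of 0.987 to 1.43 (log2 0.25 ± 0.11, adjusted p = 0.416, exact permutation p = 0.1), and the value stayed between 0.20 and 0.43 over 20 alternatives. Since limma shares the spread across probes, the standard error of Gper1 is wider than its own 6 arrays would give.

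**Figure D2:**
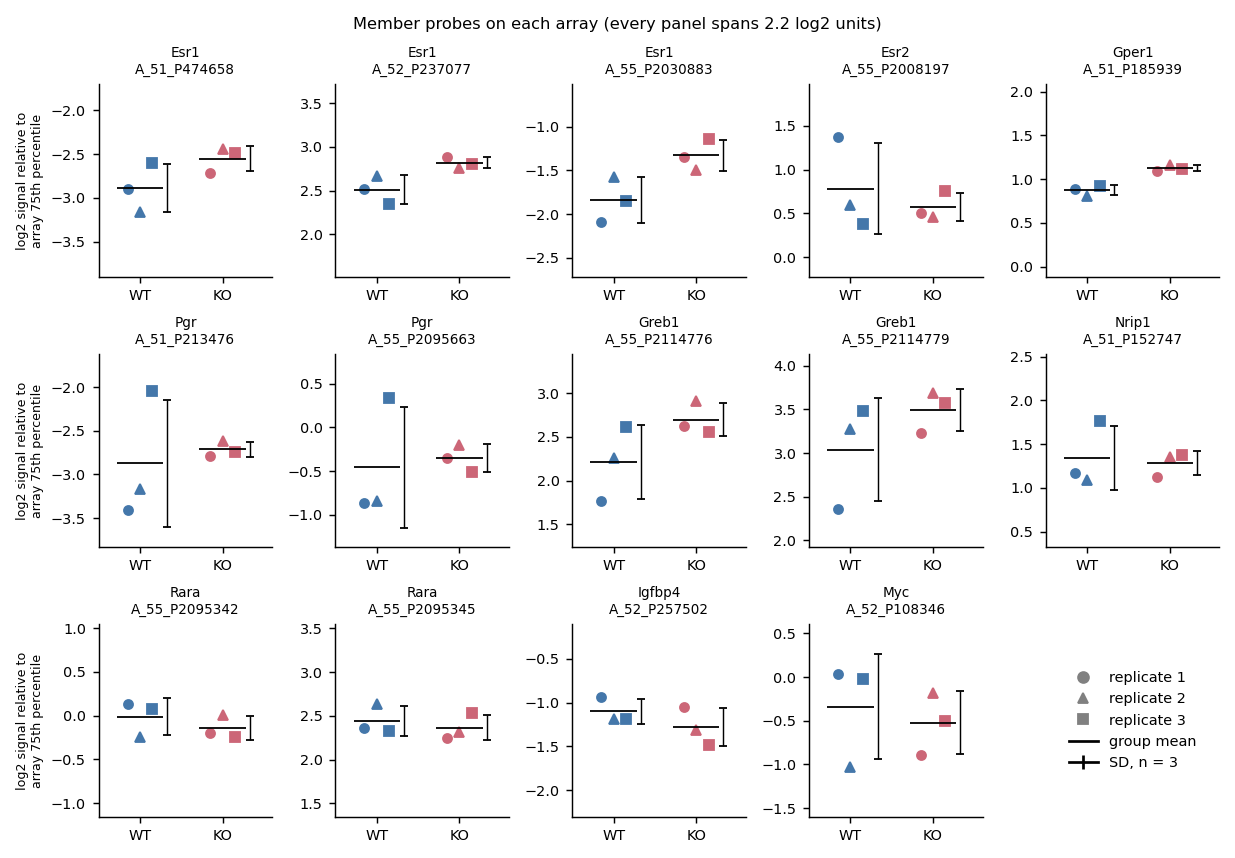
Log2 signal relative to the array's 75th percentile for the 14 probes, WT in blue and KO in red, with symbols for replicate number, a line at the group mean and a bar of 1 SD (n = 3). In the panels of Pgr, Esr2, Myc and the Greb1 probe A_55_P2114779, 1 WT array lies away from the other WT arrays, and KO arrays have the smaller SD in every panel but that of Igfbp4.

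The progesterone receptor gene Pgr differed more among WT animals than between the groups. Its brighter probe, A_55_P2095663, read -0.87, -0.84 and 0.34 in WT and -0.35, -0.20 and -0.51 in KO. WT replicate 3 was thus the highest of all arrays while the other WT replicates were the lowest, and the KO arrays lay between them. The other probe, A_51_P213476, had the same layout, at -3.41, -3.17 and -2.05 in WT and -2.78, -2.61 and -2.74 in KO. The WT arrays spanned 2.31-fold by the first probe and 2.57-fold by the second, against 1.24-fold and 1.13-fold among KO arrays.

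The log2 fold changes of Pgr were 0.11 ± 0.33 and 0.16 ± 0.34 (adjusted p = 0.897 and 0.846). The 95% interval of the first runs from a 0.626-fold to a 1.86-fold level, so a sizeable difference in either direction is not resolved. Without WT replicate 3 the values were 0.51 and 0.57, without WT replicate 1 they were -0.097 and -0.11, and without WT replicate 2 they were -0.084 and 0.014. WT replicate 3 also stood apart in neutrophil markers, whose summed level over 6 genes was 17.2 times the array's 75th percentile there, 4.72 in WT replicate 1, 6.89 in WT replicate 2 and 3.66 to 3.83 among KO arrays. S100a9 had the highest level of these genes in WT replicate 3, 3.24. Lcn2 was instead highest in WT replicate 2 (2.31, against 1.54 in WT replicate 3). Schwann cell markers of WT replicate 3 summed to 18.3, beside 11.8 in WT replicate 1, 14.04 in WT replicate 2 and 12.9 to 13.8 in KO. The part of these cells in the Pgr signal was not tested.

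Greb1, an oestrogen-induced cofactor of ERα, read higher on the KO arrays by both probes, with groups that overlapped. A_55_P2114779 read 2.36, 3.27 and 3.48 in WT and 3.22, 3.69 and 3.57 in KO. A_55_P2114776 read 1.77, 2.26 and 2.61 in WT and 2.62, 2.91 and 2.56 in KO. WT replicate 1 was the lowest array by both probes, and the probes ordered the WT arrays alike.

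The log2 fold changes of Greb1 were 0.46 ± 0.30 and 0.48 ± 0.23 (adjusted p = 0.537 and 0.436), or 1.37-fold and 1.40-fold. Both stayed above 0 under every alternative run, and the first fell from 0.46 to 0.12 without WT replicate 1 and the second to 0.26. The array that was lowest for Greb1 was, after scaling, the highest for Esr2. That array also had the highest summed signal of gonadotrope markers, 824, with 530 in WT replicate 2, 622 in WT replicate 3 and 511 to 528 among KO arrays, a sum carried mostly by Cga and Foxl2. The gonadotrope marker Fshb went the other way, with its lowest level there (2.95, against 3.86 and 6.44 in WT and 4.41 to 5.65 in KO). The summed markers of lactotropes (782), somatotropes (1028), corticotropes (712) and stem cells (173) were also highest on that array, so the high sum was not particular to gonadotropes. The 75th percentile of that array was the dimmest, at 170 intensity units against 192 to 311. Before scaling, Cga read 96270 intensity units there, within the 90660 to 106400 of the other arrays. Foxl2 read 37460 there, above the 20790 to 27820 of the others. The part of these in the Greb1 and Esr2 values was not tested.

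Nrip1 encodes RIP140, an oestrogen-induced corepressor of nuclear receptors. Its probe A_51_P152747 read 1.17, 1.09 and 1.76 in WT and 1.12, 1.35 and 1.37 in KO. As for Pgr, WT replicate 3 was the highest array, and the KO arrays lay among the WT arrays. The log2 fold change was -0.058 ± 0.21 (adjusted p = 0.914), and it was 0.15 without WT replicate 3 and 0.023 without KO replicate 1. It was above 0 with median centring (0.12) and normexp (0.022) too.

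Rara, the gene of retinoic acid receptor α and an oestrogen-responsive gene in breast cancer cells, gave 2 probes with overlapping groups. A_55_P2095345 read 2.36, 2.64 and 2.33 in WT and 2.25, 2.31 and 2.53 in KO. A_55_P2095342 read 0.14, -0.25 and 0.081 in WT and -0.20, 0.013 and -0.24 in KO. The probes ordered the arrays differently, WT replicate 2 being the highest by the first and the lowest by the second. Their log2 fold changes were -0.081 ± 0.15 and -0.13 ± 0.16 (adjusted p = 0.817 and 0.709), both above 0 with median centring (0.096 and 0.043), and the first was 0.017 without WT replicate 2. With 1 array left out they ranged from -0.16 to 0.017 and from -0.25 to -0.061.

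Igfbp4, which encodes a binding protein of insulin-like growth factors, lies near Rara on chromosome 11 with 3 protein-coding genes between them. Its probe A_52_P257502 read -0.93, -1.18 and -1.18 in WT and -1.05, -1.31 and -1.48 in KO. The groups overlapped, and the log2 fold change was -0.18 ± 0.16 (adjusted p = 0.631; -0.0031 with median centring). It was below 0 under every alternative run, at -0.096 without WT replicate 1. Leaving out KO replicate 3 gave -0.080, and leaving out KO replicate 1 gave -0.30. It was the only probe of the 14 whose KO arrays spread more than its WT arrays.

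Myc, the gene of a growth-promoting transcription factor that oestrogen induces early, varied within both groups, 2.09-fold among WT and 1.64-fold among KO arrays. A_52_P108346, on 2 spots per array, read 0.035, -1.03 and -0.025 in WT and -0.89, -0.18 and -0.50 in KO. WT replicate 2 and KO replicate 1 were the low arrays, 1 in each group. Its log2 fold change was -0.18 ± 0.33 (adjusted p = 0.813). It was 0.0046 without WT replicate 1, -0.53 without WT replicate 2, -0.025 without WT replicate 3, 0.0026 without KO replicate 1, -0.70 within slide row 1 and 0.85 within slide row 2, which holds 1 array per group.

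**Figure D3:**
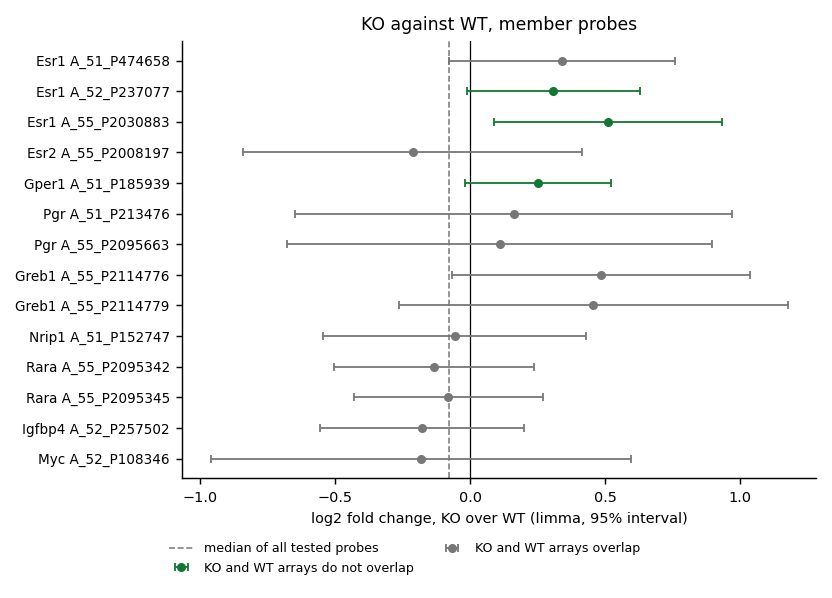
Log2 fold change, KO over WT, of the 14 probes with limma's 95% interval; green marks the probes whose KO and WT arrays did not overlap, and the dashed line is the median of all tested probes, -0.080. The intervals of 13 of the 14 probes include 0, and that of the Esr1 probe A_55_P2030883 runs from 0.088 to 0.93.

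Across the set the spread among WT arrays was larger than among KO arrays for 13 of 14 probes, against 69.4% of all tested probes. The 14 probes stand for 9 genes on the same arrays, so they are not independent of each other. The median SD was 0.32 in WT and 0.15 in KO for the 14 probes, and 0.23 and 0.15 for all probes. WT replicates 1 and 2 were the lowest array for 5 probes each. No single WT array was extreme throughout, since WT replicate 1 was the highest for 4 probes and WT replicate 3 for 3.

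**Figure D4:**
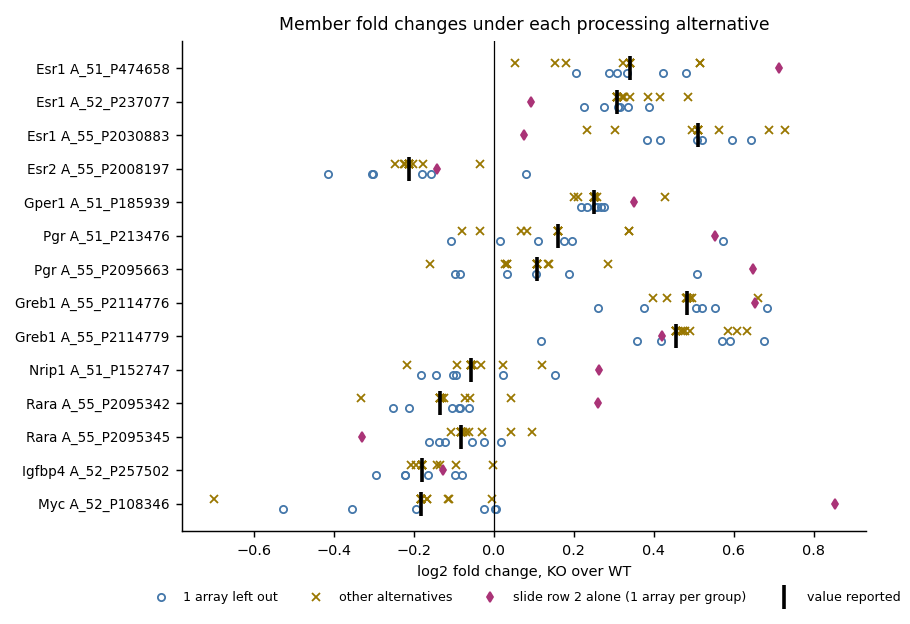
Log2 fold change, KO over WT, of each probe as reported and under each processing alternative. Esr1, Gper1 and Greb1 stay above 0 throughout and Igfbp4 below, while Pgr, Nrip1, Rara, Myc and Esr2 have values on both sides of 0.

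The genes whose profile over the 6 arrays lay closest to the brightest Esr1 probe were 2610507I01Rik, D3Ertd751e and Pear1, with a root-mean-square difference of 0.027, 0.030 and 0.037 (log2, each gene centred on its own mean) among 21462 probes of other named genes. Those closest to the brighter Pgr probe were Kpna2, Rnd3 and Patj, at 0.054, 0.079 and 0.091. All 3 of the latter had their highest value in WT replicate 3, as Kpna2 with 4.02 there against 2.85 and 2.90 in WT and 3.15 to 3.38 in KO. The arrays share scaling and animals, so closeness over 6 arrays is a description.

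Lists of related genes gave the wider pathway. No probe of the 9 lists passed the adjusted threshold in either direction, by limma. The list medians ran from -0.18 to 0.13, around the -0.080 of all probes.

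Among 12 other steroid and oestrogen-related receptors (16 tested probes), 0 passed at an unadjusted p under 0.05, against 12.4% of all probes. Above 0 were 7 probes (median -0.011). The membrane progestin receptor genes Paqr6 and Paqr8 had -0.30 ± 0.15 and 0.32 ± 0.19 by their lowest-p probes, and Paqr8 had 0.16 without WT replicate 3 and 0.20 without KO replicate 3. The other Paqr6 probes read -0.020 ± 0.14 and 0.085 ± 0.15, so its probes went both ways.

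Of 30 tested probes for 18 coregulators, 3 were higher and 2 lower at an unadjusted p under 0.05 (3.67% and 8.77% of all probes), with a median of 0.13. Ncor1, a corepressor that ERα recruits, went both ways by its 3 probes, at 0.60 ± 0.20, 0.60 ± 0.18 and -0.42 ± 0.12 (adjusted p = 0.348, 0.327 and 0.326). The orphan receptor gene Nr2f1 read -0.33 ± 0.12 and -0.32 ± 0.13. The pioneer factor gene Foxa1, well above background on 2 WT and 3 KO arrays, had 1.18 ± 0.46, but 0.016 with normexp and 0.60 without WT replicate 1.

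The median of 36 tested probes for 29 other oestrogen-responsive genes was -0.039. At an unadjusted p under 0.05, 0 were higher and 2 lower (3.67% and 8.77% of all probes). These were Egr3, an early-response factor, at -0.79 ± 0.25 with 2 WT arrays and 1 KO array well above background (-0.25 with normexp), and 1 probe of Igf1 at -0.57 ± 0.22, whose other 3 probes read -0.13 to -0.22. That value of -0.57 became -0.36 without WT replicate 1 and -0.27 in the authors' deposited table. Krt19, an epithelial keratin gene, had -0.83 ± 0.39 (-0.43 without WT replicate 3). Tff1, Ccn5, Areg, Lif and Ret were not tested, since their probes were well above background on fewer than 3 arrays.

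Of 11 tested probes for 9 progesterone-responsive genes, 3 were higher and 2 lower at an unadjusted p under 0.05. Over all probes these shares were 3.67% and 8.77%, and the list median was -0.18. Klf9, a Krüppel-like factor, read 1.503, 1.71 and 1.72 in WT and 2.13, 2.17 and 2.33 in KO (0.57 ± 0.13, adjusted p = 0.270). Fkbp5, a cochaperone of steroid receptors, had 0.38 ± 0.14 (adjusted p = 0.363), and both genes also respond to glucocorticoids. Wnt4 had -0.89 ± 0.30 by 1 probe, well above background on 2 KO arrays, and -0.27 ± 0.24 by the other. The first was -0.57 without KO replicate 2.

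The androgen-responsive list shares Fkbp5 and Zbtb16 with the progesterone-responsive list, and both genes are among the higher probes of each. Of its 7 tested probes 3 were higher and 1 lower at an unadjusted p under 0.05 (3.67% and 8.77% of all probes). The list median was 0.13. The prostate transporter gene Slc45a3 had 0.64 ± 0.22 by a dim probe (0.069 with normexp) and -0.18 ± 0.22 by the brighter one. Ndrg1, a stress-responsive gene, had -0.40 ± 0.15.

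Among retinoid receptors and retinoic acid genes, the median of 19 tested probes was -0.084. With an unadjusted p under 0.05, 1 was higher and 0 lower (3.67% and 8.77% of all probes). That was Rarg, the gene of retinoic acid receptor γ, at 1.66, 1.77 and 1.57 in WT and 2.11, 2.02 and 2.29 in KO (0.47 ± 0.13, adjusted p = 0.322). Its groups did not overlap, whereas those of Rara did, and a difference between these 2 genes was not tested. Dhrs3, a retinal reductase gene, and Crabp2, which encodes a carrier of retinoic acid, had -0.25 ± 0.15 and 0.19 ± 0.12.

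Among IGF ligands, receptors and binding proteins, 0 of 15 tested probes were higher and 2 lower at an unadjusted p under 0.05. Over all probes these shares were 3.67% and 8.77%, and the list median was -0.018. Igfbp6, a binding protein with preference for IGF-II, read 1.96, 1.44 and 2.09 in WT and 1.27, 1.12 and 0.87 in KO (-0.75 ± 0.21, adjusted p = 0.317; -0.32 within slide row 2). The 2 probes of Igfbp2 had -0.20 ± 0.13 and 0.015 ± 0.16, and the second Igf probe at that threshold was the one of Igf1 given above.

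In the MYC network 2 of 14 tested probes were higher and 2 lower at an unadjusted p under 0.05. The shares over all probes were 3.67% and 8.77%, and the list median was 0.042. Mycn, a close relative of Myc, read 0.72, 0.23 and 0.33 in WT and -0.22, -0.45 and -0.25 in KO, without overlap (-0.73 ± 0.17, adjusted p = 0.270). Max, the partner of MYC proteins, had 0.32 ± 0.13. Mxd3, a repressor of the network, had -1.81 ± 0.50 with only 1 KO array well above background, and -0.51 with normexp.

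Of 25 tested probes for MYC-responsive genes, 0 were higher or lower at an unadjusted p under 0.05, against 12.4% of all probes. The list median was -0.040. The lowest-p probes of the kinase gene Cdk4, the nucleolin gene Ncl and Nme1 had -0.35 ± 0.16, 0.44 ± 0.22 and -0.42 ± 0.22. Their other probes read -0.21 ± 0.15 and -0.080 ± 0.14 for Cdk4, 0.054 ± 0.13 for Ncl and -0.16 ± 0.18 for Nme1. The value of Ncl was 0.22 without WT replicate 1, and that of Nme1 was -0.19 without WT replicate 3.

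**Figure D5:**
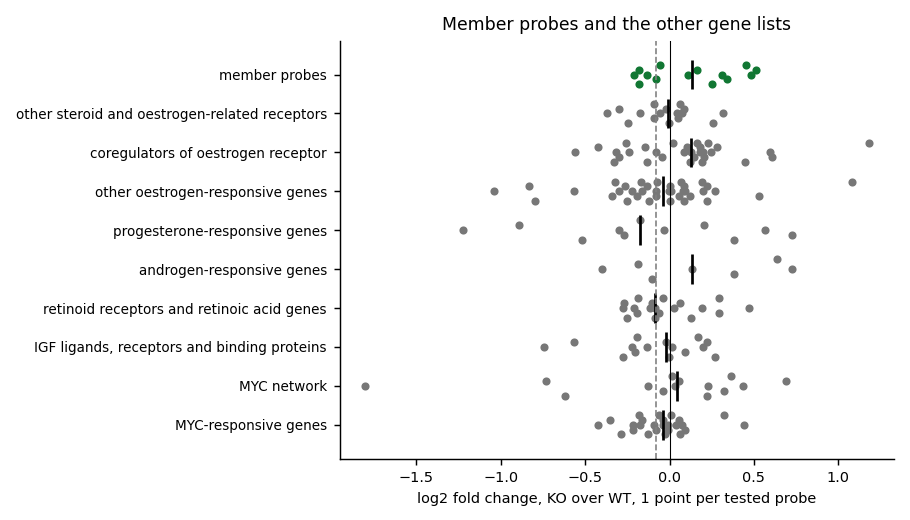
Log2 fold change, KO over WT, of each tested probe in the set and in the 9 lists of related genes, 1 point per probe, with the list median as a bar; the dashed line is the median of all tested probes, -0.080. The list medians lie between -0.18 and 0.13, and points of every list fall on both sides of 0.

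For the series as a whole, the 75th percentile of the arrays ran from 170 to 311 intensity units, and 34634 to 40567 probes per array were well above background. The hormone genes Gh, Prl, Pomc and Cga, which define the tissue, were among the probes well above background on all arrays. Of the 14 marker lists of pituitary and other cell types, 0 probes were called. On no array did the gonadotrope marker Dmp1 exceed the well-above-background limit. The brighter Kdm4a probe had a mean level of 1.97 ± 0.15 in the WT group and 1.35 ± 0.13 in the KO group (SD, n = 3 each; log2 fold change -0.62 ± 0.14, adjusted p = 0.266), and the other was well above background on 1 array of each group. Across probes, pairs of KO arrays correlated at 0.992, pairs of WT arrays at 0.982 to 0.985 and WT with KO arrays at 0.982 to 0.987. The limma p-values set each difference against the spread among these 6 animals, moderated by that of all tested probes. With 3 arrays per group, the precision of every value is limited.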

How the data were processed

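Intensity values (gProcessedSignal) and spot flags were deposited by the authors as Agilent Feature Extraction 11.0.1.1 output; per the file headers this signal is background-subtracted and detrended, with no normalization across arrays. A value table deposited by the authors holds log2 values for 29154 spots, with column medians of 8.25 to 8.27. No source used here states its normalization; the submitters' processing notes name limma. Control and outlier spots were left out, spots of a probe averaged as log2, and each array's 75th percentile subtracted. A probe entered the test if at least 3 arrays had it well above background. Tests were run in R 4.3.3 with limma 3.58.1 (lmFit, eBayes, two-sided), each probe alone, with Benjamini-Hochberg adjustment and calls at 0.05. Symbols came from RefSeq accessions of GRCm38.p6 (27656 of 55681 probes). Probe sequences were not used here.

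Named genes were all member probes, Kdm4a, 3 genes with the smallest p per list, and 3 genes closest to Esr1 and to Pgr over the arrays. Of these, 1 gene is not reported here. The members, lists and tests were chosen with earlier results of these data known. Alternatives were normexp (offset 50, on median brightness), quantile normalization, median centring, the authors' table, other filters, trend with robust fitting, array weights, replicate and slide row blocks, each slide row alone, gene-level values and leaving out each array. The limma fit was tested on simulated data with planted differences.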

Additional observations from a re-analysis of the deposited data

How the results depend on the processing

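The count of member probes and of list probes past an adjusted p under 0.05 was 0 in all 19 alternatives with a test (limma), while the count over all probes was 35 with normexp, 29 in the authors' table, 30 with a variance trend and robust fitting, 11 with the filter at all 6 arrays and 3 with median centring, and 0 in the others, including each array left out. Members at an unadjusted p under 0.05 numbered 1 as reported and 0 to 5 under alternatives, 5 being in the authors' table. The lowest adjusted p of any member was 0.188, without WT replicate 2. Median centring moved the median of all probes from -0.080 to 0.097. Of the member values under alternatives, 250 kept their sign and 20 did not, and 7 of the 14 probes never changed it. Sign changes were -0.080 with normexp, -0.035 in slide row 1, and -0.11 to 0.57 with 1 array left out for Pgr A_51_P213476; -0.16 in slide row 1 and -0.097 to 0.51 with 1 array left out for Pgr A_55_P2095663; 0.022 with normexp, 0.12 with median centring, 0.26 in slide row 2 and -0.18 to 0.15 with 1 array left out for Nrip1; 0.043 with median centring and 0.26 in slide row 2 for Rara A_55_P2095342; 0.096 with median centring, 0.043 in slide row 1 and -0.16 to 0.017 with 1 array left out for Rara A_55_P2095345; 0.85 in slide row 2 and -0.53 to 0.0046 with 1 array left out for Myc; and -0.41 to 0.081 with 1 array left out for Esr2. The cause was not tested. Of the other named genes, Cdk4 (0.010), Nme1 (0.0086) and Paqr6 (0.0013) changed sign in slide row 2, which holds 1 array per group and gave no test. Deviations of same-numbered arrays correlated at 0.14, -0.17 and -0.10. The highest values were those of WT replicate 3 with KO replicate 2 (0.2105) and WT replicate 2 with KO replicate 3 (0.205). In each of these pairs the arrays share a slide column, and the part of the column was not tested. Such correlations cannot tell whether littermates were paired. With the replicate block 3802 probes, against 4570, had an unadjusted p under 0.05, 0 were called, and the lowest adjusted p of a member was 0.481; no call changed. Dim probes limit the smaller values: A_51_P474658 of Esr1 gave 0.054 with normexp.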
